A study of Mus musculus with 36 samples.

Results

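The Hox genes encode homeodomain transcription factors and lie in 4 clusters of the mouse genome. All 39 protein-coding genes named Hoxa, Hoxb, Hoxc or Hoxd followed by a number were taken, out of 53379 genes in the count tables. They were chosen by name alone, but the family was proposed with its levels at the tumor sites known, so differences between tumor sites are given here as a description without a test. In GRCm38 coordinates the 11 Hoxa members spanned chr6:52155590-52260880, the 10 Hoxb members chr11:96194316-96368256, the 9 Hoxc members chr15:102921103-103036852 and the 9 Hoxd members chr2:74668310-74765142. Genes with the same number in different clusters are paralogs of one another, and the numbers run from 1 at the 3′ end of each cluster to 13 at the 5′ end.

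RNA sequencing of formalin-fixed, paraffin-embedded tissue gave 36 libraries in 7 groups. Mice of the genotype Sglt2-Cre; ASPSCR1-TFE3 LSL/+ carry the fusion ASPSCR1-TFE3 behind a stop cassette that Cre removes, and Sglt2-Cre acts in the proximal tubule of the kidney. From 6 such mice there were 11 kidney tumor libraries (6 mice), 4 retro-orbital tumors (mice 2, 3, 5 and 6), 3 brain tumors (mice 1, 2 and 4) and 4 non-transformed kidneys (mice 1, 3, 4 and 5), and the control kidneys were 6 libraries from 3 Sglt2-Cre mice without the fusion. The 5 dysmorphic fetal kidneys came from Pax8-Cre; ASPSCR1-TFE3 LSL/+ fetuses, in which Cre acts in the nephric lineage, and 3 control fetal kidneys came from fetuses labelled Pax8-Cre, which the submitters' design describes as carrying either Pax8-Cre or the unrecombined fusion allele. The adults' ages are not given in the labels. Libraries of the same mouse and group were summed, which left 28 sums, and n below counts mice or fetuses. The labels do not say whether tumors of a mouse arose separately, so p-values measure the spread between these animals.

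In the embryo, Hox genes are switched on in the order of their position in the cluster and mark levels along the body axis, and adult tissues keep much of the combination set at their level of origin. The head anterior to the hindbrain forms without Hox expression, and its identity is set by other homeobox genes such as the Otx and Emx genes. In the kidney, the paralogs Hoxa11, Hoxc11 and Hoxd11 act with Pax2 and Eya1 when the ureteric bud is induced, while group 10 members act in the stroma around the nephrons. Adult kidney epithelium keeps expressing many Hox genes.

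The homeobox sequences of the group 11 paralogs are shown because 2 of the 3, Hoxa11 and Hoxc11, rose in kidney tumors and Hoxd11 did not pass the test. The homeobox is the stretch of 180 bases that encodes the 60 residues of the homeodomain, the DNA-binding part, and in these members it lies in exon 2 of 2. Each is given 5′ to 3′ on the coding strand, with bases that differ from Hoxa11 in capitals. Hoxa11 (GENCODE gene ENSMUSG00000038210.10) holds it at chr6:52243402-52243581 on the minus strand, Hoxc11 (ENSMUSG00000001656.3) at chr15:102956480-102956659 on the plus strand and Hoxd11 at chr2:74683917-74684096 on the plus strand.
Hoxa11: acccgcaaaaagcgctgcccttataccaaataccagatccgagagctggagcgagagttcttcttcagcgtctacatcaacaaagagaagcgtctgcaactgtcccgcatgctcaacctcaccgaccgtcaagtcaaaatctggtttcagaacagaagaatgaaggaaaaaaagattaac
Hoxc11: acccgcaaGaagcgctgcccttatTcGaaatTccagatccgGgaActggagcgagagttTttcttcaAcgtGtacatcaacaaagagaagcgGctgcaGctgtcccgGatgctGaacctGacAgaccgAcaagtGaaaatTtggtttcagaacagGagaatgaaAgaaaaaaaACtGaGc
Hoxd11: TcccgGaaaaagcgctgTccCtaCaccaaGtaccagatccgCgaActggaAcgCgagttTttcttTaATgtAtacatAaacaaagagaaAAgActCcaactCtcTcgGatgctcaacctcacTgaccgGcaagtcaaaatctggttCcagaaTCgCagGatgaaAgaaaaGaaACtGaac
Hoxc11 differed from Hoxa11 at 24 of the 180 bases and Hoxd11 at 35. Across the family, members of the same paralog group shared a median of 80.6% of homeobox bases (42 pairs, 67.2 to 93.9%), compared to 60.6% for members of different groups (699 pairs, 46.1 to 88.9%).

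The promoters of Hoxa11, Hoxd10 and Hoxd8 are shown because Hoxa11 rose and Hoxd10 fell in kidney tumors and Hoxd8 was the member with the highest level in retro-orbital tumors. The sequences are from RefSeq (GRCm38.p6) and run from 250 bases before to 50 bases after the annotated start, which places the last bases in the first exon. RefSeq promoters were matched for 22 of the 39 members. Capitals mark the hexamer CACGTG and the heptamer TCATGTG on either strand (the reverse of TCATGTG reads CACATGA), which are the E-box letters known for the MiT family of factors to which TFE3 belongs.
Hoxa11 chr6:52245761-52246060 minus strand: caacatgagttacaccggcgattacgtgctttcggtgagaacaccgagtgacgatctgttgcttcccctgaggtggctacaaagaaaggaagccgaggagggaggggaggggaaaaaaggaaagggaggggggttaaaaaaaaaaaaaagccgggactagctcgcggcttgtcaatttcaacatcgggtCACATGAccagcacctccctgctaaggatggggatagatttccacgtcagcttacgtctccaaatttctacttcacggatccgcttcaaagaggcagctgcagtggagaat
Hoxd10 chr2:74691641-74691940 plus strand: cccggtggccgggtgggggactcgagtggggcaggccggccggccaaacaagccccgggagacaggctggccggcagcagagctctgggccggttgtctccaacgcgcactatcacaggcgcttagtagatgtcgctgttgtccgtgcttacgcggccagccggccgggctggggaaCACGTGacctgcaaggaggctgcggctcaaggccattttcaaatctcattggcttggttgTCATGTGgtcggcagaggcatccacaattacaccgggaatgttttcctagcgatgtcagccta
Hoxd8 chr2:74704365-74704664 plus strand: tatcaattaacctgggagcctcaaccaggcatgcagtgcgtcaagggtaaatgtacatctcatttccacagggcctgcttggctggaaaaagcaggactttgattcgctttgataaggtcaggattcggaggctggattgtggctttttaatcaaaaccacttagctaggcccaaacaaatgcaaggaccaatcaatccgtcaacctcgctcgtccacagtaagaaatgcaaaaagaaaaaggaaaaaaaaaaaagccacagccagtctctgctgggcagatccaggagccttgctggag
The Hoxa11 window held 15 CpG dinucleotides, that of Hoxd10 22 and that of Hoxd8 6, compared to a median of 14.5 over the 24 promoters of members and 7 over all 32851 promoters. CACGTG was found in 5 of the 22 matched members (Hoxd1, Hoxd4, Hoxd10, Hoxd11 and Hoxd13) and in 7.15% of all promoters, and TCATGTG in 4 of 22 (Hoxa2, Hoxa11, Hoxd3 and Hoxd10) and in 3.77% of all promoters. A match of letters is no evidence of binding, and in these windows the motifs do not overlap each other.

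Libraries held 80205573 to 121415057 counts in genes, and levels are given as CPM, the counts of a gene per 1000000 counts of the library after scaling by TMM factors. Proximal tubule markers (6 genes, summed) were at 11081 to 12147 CPM in control kidneys and 11144 to 14225 CPM in non-transformed kidneys. Kidney tumors had 627 to 7718 CPM of these markers, with 7718 in mouse 4 and 7344 in mouse 5, and no marker of the list was at 0 in any group. Glial markers reached 1015 CPM in the brain tumor of mouse 2 and 31.5 CPM in that of mouse 1. The retro-orbital tumor of mouse 5 stood apart from the other 3 by its kidney markers, with 1017 CPM of proximal tubule markers compared to 84.1, 170 and 125 CPM in mice 2, 3 and 6. Values of the retro-orbital tumors without mouse 5 are given beside the shares by cluster, the medians and the largest fold changes. Several members share exon bases with other genes. For Hoxd3 (62.8%) and Hoxd4 (52.3%) the share counts bases in common with each other or with any other gene beside them. Hoxb3 (52.9%) and Hoxa11 (35.0%) each share bases with an antisense gene. The strand setting of the counting is not given in the sources used here, and levels of these members are uncertain for that reason.

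Hox genes were at high levels in the kidneys and in the kidney tumors and at very low levels in tumors at the other sites. The sum over the 39 members was 340.0 ± 5.98 CPM (SD, n = 3) in control kidneys, 299 ± 13.1 CPM (n = 4) in non-transformed kidneys and 321 ± 46.3 CPM (n = 6) in kidney tumors. In retro-orbital tumors it was 10.9 ± 8.60 CPM (n = 4), with 6.48, 6.15, 23.7 and 7.05 CPM in mice 2, 3, 5 and 6, and in brain tumors 4.53 ± 2.32 CPM (n = 3), with 2.33, 4.29 and 6.96 CPM in mice 1, 2 and 4. Every retro-orbital and brain tumor lay below every kidney tumor, the lowest of which had 263 CPM. Without mouse 5 the retro-orbital sum was 6.56 ± 0.456 CPM and spread from 6.15 to 7.05 CPM. In bulk tissue, fewer cells of a type and less RNA per cell cannot be told apart.

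**Figure D1:**
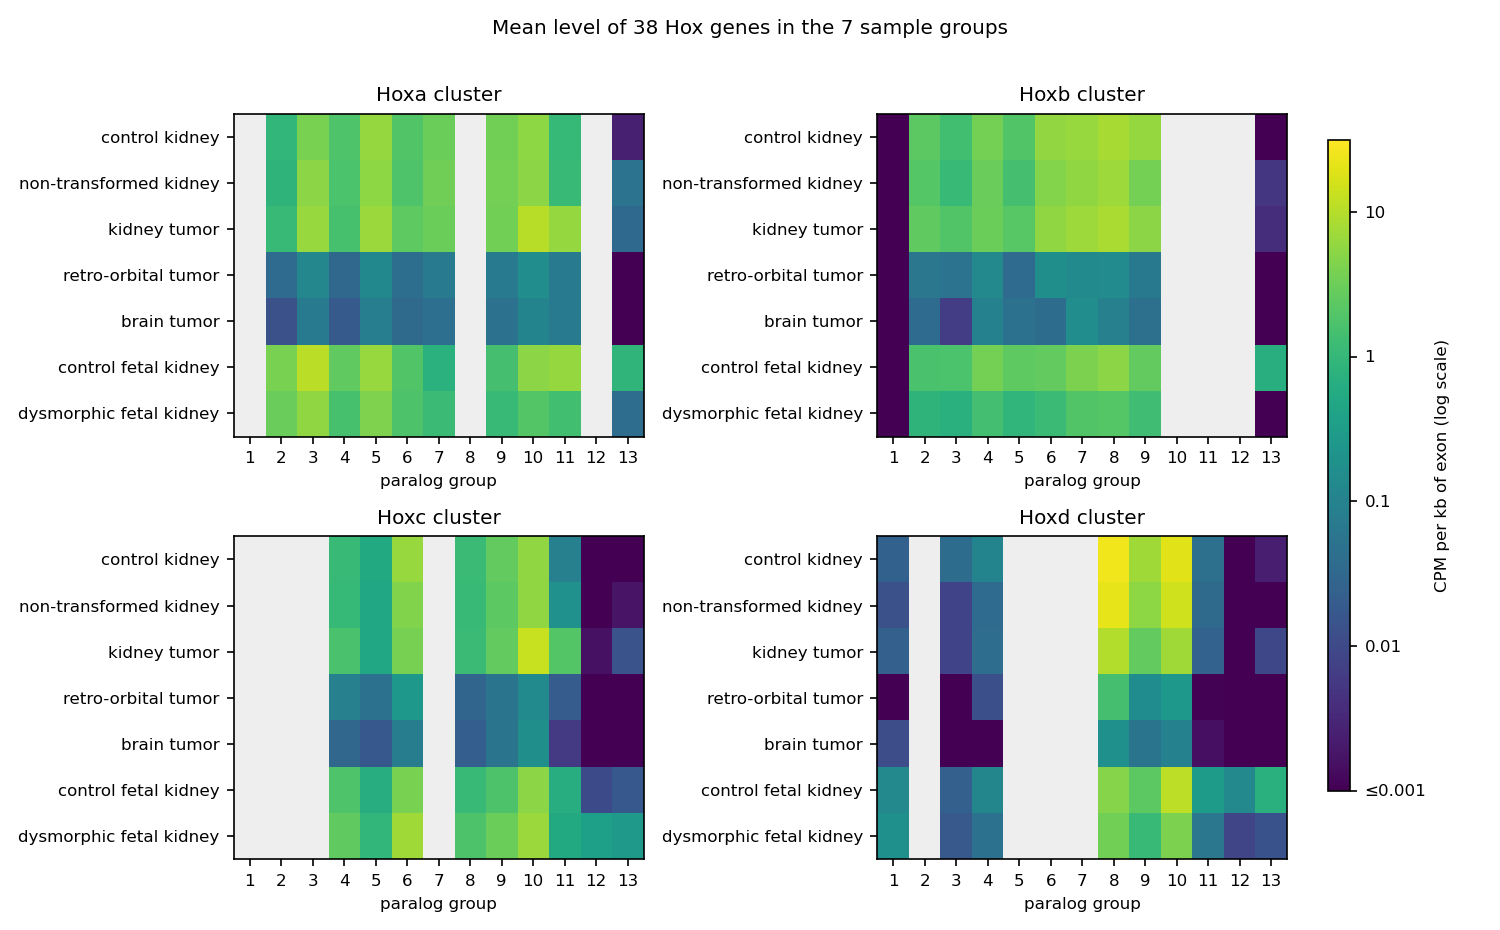
Mean level of 38 of the 39 Hox genes in CPM per kb of exon (log color scale, 0.001 or less at its lower end), with a panel for each cluster, the 7 groups as rows and the paralog groups as columns; gray marks numbers without a value shown. The rows of retro-orbital and brain tumors are dark in all 4 clusters, with the Hoxd8 cell of the retro-orbital tumors (1.48 CPM per kb) the brightest among them.

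At a mean of 1 CPM or more, 26 members were found in control kidneys, the same number in non-transformed kidneys and 27 in kidney tumors. In retro-orbital tumors Hoxd8 was the only member at that level, and brain tumors had 0 members there. Members without a single count in any animal numbered 5 in control kidneys, 2 in kidney tumors, 8 in retro-orbital tumors and 9 in brain tumors. Hoxb1, a hindbrain gene, had 0 counts in every library.

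Of the 39 members, 30 were lower in every retro-orbital tumor than in every kidney tumor and 0 were higher, while over all 22136 genes 8.48% were lower without overlap and 7.82% higher. Brain tumors likewise had 30 of 39 members below every kidney tumor and 0 above, beside 8.45% and 6.87% of 23391 genes. These counts follow from the contrast on which the family was proposed and are read no further. The median log2 fold change over the members that passed the filter on low counts was -5.38 for retro-orbital tumors (30 members, -0.09 over all genes; -6.99 over 31 members without mouse 5, with -0.05 over all genes) and -6.02 for brain tumors (31 members, 0.03 over all genes). The 9 members without a fold change in the retro-orbital comparison were Hoxa13, Hoxb1, Hoxb13, Hoxc12, Hoxc13, Hoxd1, Hoxd3, Hoxd12 and Hoxd13, all of them near 0 in kidney tumors as well.

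By cluster, retro-orbital tumors had 1.84% of the kidney tumor mean for Hoxa, 2.25% for Hoxb, 2.83% for Hoxc and 10.7% for Hoxd. In brain tumors the shares were 1.23% for Hoxa, 1.38% for Hoxb, 1.60% for Hoxc and 1.79% for Hoxd. Without mouse 5 the retro-orbital shares were 0.555% for Hoxa, 0.932% for Hoxb, 2.19% for Hoxc and 8.38% for Hoxd. Hoxd8 made up most of the Hoxd level there, and the other 8 Hoxd members summed to 4.36% of the kidney tumor mean in retro-orbital tumors, and to 1.26% without mouse 5, below Hoxc. In brain tumors these 8 members were at 1.64%. Among the 27 members with a kidney tumor mean of at least 1 CPM, single members kept 1.04 to 15.3% in retro-orbital tumors (median 2.04%) and 0.303 to 3.37% in brain tumors (median 1.43%).

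Hoxd8 (ENSMUSG00000027102.4, chr2:74704615-74707933, plus strand), a central Hoxd gene of the kidney's posterior body level, had the highest level of the family in retro-orbital tumors. Its level was 4.03, 3.56, 5.50 and 3.16 CPM in the retro-orbital tumors of mice 2, 3, 5 and 6 (382, 410, 604 and 379 counts). Kidney tumors had 14.3 CPM at the lowest, 22.1 CPM at the median and 42.2 CPM at the highest, and brain tumors had 0.361, 0.7 and 0.446 CPM. The 3 sites did not overlap in Hoxd8: kidney tumors were highest, retro-orbital tumors lay between and brain tumors were lowest. The log2 fold change was -2.73 ± 0.36 (SE) for retro-orbital and -5.63 ± 0.55 for brain tumors compared to kidney tumors, and -2.98 ± 0.41 for brain compared to retro-orbital tumors.

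Compared within each mouse, the retro-orbital tumor had 17.4, 24.8, 13 and 17.6% of the Hoxd8 level of its own kidney tumors in mice 2, 3, 5 and 6. The other 38 members summed to 0.749, 0.720, 8.26 and 1.14% in the same mice. Hoxd8 was therefore at a higher share than the rest of the family in each of the 4 mice, by a wide margin in mice 2, 3 and 6 and less so in mouse 5. Proximal tubule markers of the same tumors were at 13.4, 27, 13.8 and 19.6% of the kidney tumors of the same mouse, close to the shares of Hoxd8, and distal nephron and collecting duct markers at 71.6, 61.9, 13.8 and 145%. The part of kidney cells in the Hoxd8 level was not tested. In brain tumors the proximal tubule markers were at 11.1, 47.6 and 9.42%. There Hoxd8 was at 1.71, 3.02 and 1.10% of the same mouse's kidney tumors (mice 1, 2 and 4) and the other 38 members at 0.702, 1.09 and 2.74%, so the order turned in mouse 4. Hoxd8 made up 62.1, 57.8, 23.2 and 44.8% of all Hox CPM in retro-orbital tumors, 19.1 to 21.3% in control kidneys, 3.82 to 16.1% in kidney tumors and 6.41 to 16.3% in brain tumors.

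**Figure D2:**
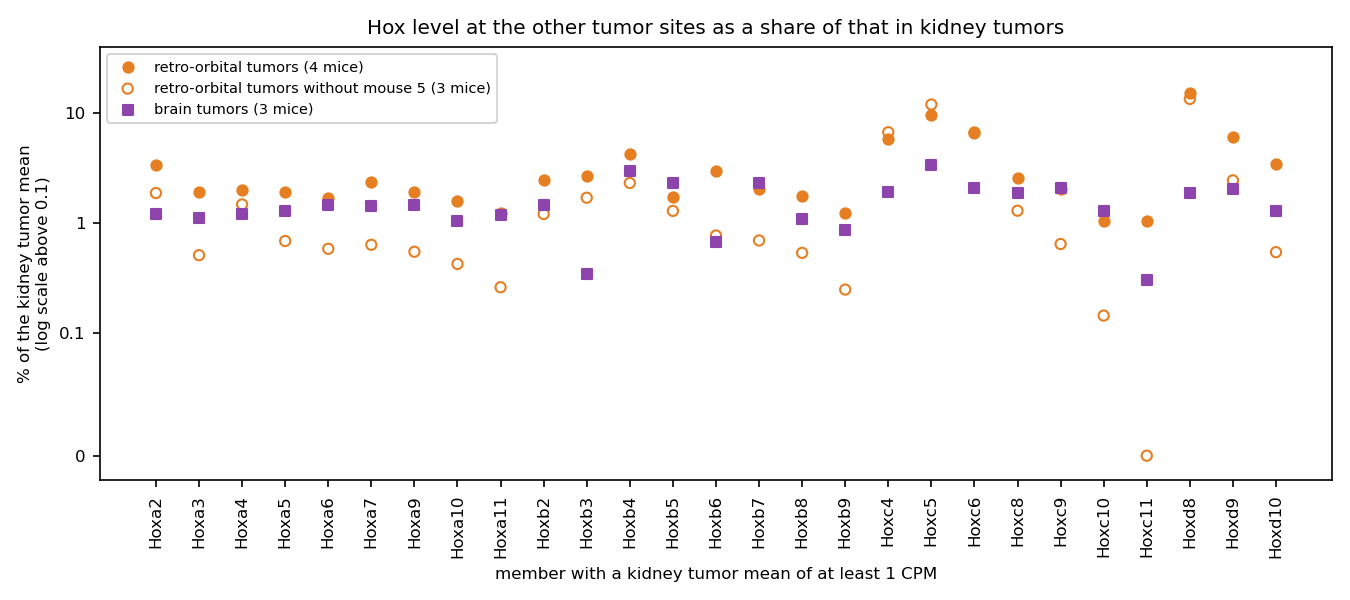
Level of each of the 27 Hox genes with at least 1 CPM in kidney tumors, in percent of the kidney tumor mean, for retro-orbital tumors, for retro-orbital tumors without mouse 5 and for brain tumors. Hoxd8 keeps 15.3% in retro-orbital tumors and Hoxc5 is next to it once mouse 5 is left out (12.0%), while brain tumors stay at or under 3.37% for every gene.

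Mouse 5 carried most of the remaining signal of the other members in retro-orbital tumors. Hoxa10, a stromal and posterior gene, was at 0.126, 0.0694, 1.70 and 0.233 CPM in mice 2, 3, 5 and 6, with kidney tumors between 16.2 and 50.3 CPM. Hoxd10 was at 0.105, 0.0781, 1.60 and 0.0333 CPM, with kidney tumors between 5.70 and 23.2 CPM. Mouse 5 was the highest retro-orbital tumor for both genes and still lay below every kidney tumor. Without it, the 26 members other than Hoxd8 kept 0 to 12.0% of the kidney tumor mean with a median of 0.695%. The part that the kidney markers of this library have in these values was not tested.

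The Hoxc genes of the 3′ side stood out from this pattern. Hoxc4 was at 0.105, 0.382, 0.127 and 0.333 CPM in the retro-orbital tumors of mice 2, 3, 5 and 6, Hoxc5 at 0.0422, 0.373, 0.0364 and 0.15 CPM and Hoxc6 at 0.148, 0.425, 0.646 and 1.20 CPM. Here mouse 5 was not the highest, and mice 3 and 6 exceeded mouse 2 for each of the 3 genes. Hoxc5 and Hoxc6 had, after Hoxd4 and Hoxd8, the smallest log2 fold changes from kidney tumors (-3.41 ± 0.70 and -3.93 ± 0.57). Hoxd9 followed with -4.06 ± 0.72.

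The largest differences in retro-orbital tumors were those of Hoxc11 (log2 fold change -6.57 ± 1.71), Hoxc10 (-6.57 ± 1.33), Hoxb9 (-6.36 ± 1.21), Hoxa11 (-6.33 ± 1.28) and Hoxa10 (-5.99 ± 1.01), all of paralog groups 9 to 11. Hoxb5 (-5.87 ± 0.44), Hoxa6 (-5.86 ± 0.89), Hoxb8 (-5.83 ± 0.95), Hoxa3 (-5.72 ± 0.90) and Hoxa5 (-5.72 ± 0.89) came next. Without mouse 5, Hoxc10 (-9.33 ± 0.98), Hoxb9 (-8.67 ± 0.97), Hoxa11 (-8.53 ± 1.13) and Hoxa10 (-7.84 ± 0.62) lay further below kidney tumors, and Hoxc11 then had 0 counts in every retro-orbital tumor. The smaller differences of Hoxd8, Hoxc5 and Hoxc6 moved little without mouse 5, to -2.88 ± 0.42 for Hoxd8, -3.03 ± 0.68 for Hoxc5 and -3.92 ± 0.67 for Hoxc6. Hoxc11 had 0 counts in 3 of the 4 retro-orbital tumors and 0.164 CPM in mouse 5, compared to 0.221 to 8.88 CPM in kidney tumors, and so it did not overlap by a small gap. Hoxa11 was at 0.0422, 0, 0.582 and 0.0667 CPM, far under the lowest kidney tumor at 3.74 CPM.

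In brain tumors the order was different. Hoxc11 (-8.18 ± 1.69) was again first, followed by Hoxb3 (-8.08 ± 0.83), Hoxd4 (-7.24 ± 1.01), Hoxb6 (-7.10 ± 1.06), Hoxb9 (-6.76 ± 0.58), Hoxa10 (-6.51 ± 0.83), Hoxb8 (-6.44 ± 0.58), Hoxa3 (-6.41 ± 0.53), Hoxa11 (-6.32 ± 1.13) and Hoxa4 (-6.25 ± 0.43). Hoxd4 had 0 counts in all 3 brain tumors, which makes its fitted value depend on the prior count. Set against the floor of 3 counts per library (0.0289 CPM), Hoxd4 was at least 4.11-fold lower than the kidney tumor mean of 0.119 CPM. Hoxb3, a 3′ gene of its cluster, was at 0.0190, 0.00814 and 0.0582 CPM in brain tumors, 0.0843, 0.0520, 0.455 and 0.283 CPM in retro-orbital tumors and 3.86 to 13.7 CPM in kidney tumors. Smaller differences among non-overlapping members were those of Hoxd11 (-3.89) and Hoxc5 (-4.78), while Hoxd1 overlapped between brain and kidney tumors (-0.85 ± 1.19).

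Between brain and retro-orbital tumors, Hoxd8 (-2.98 ± 0.41) and Hoxc4 (-1.55 ± 0.58) were the 2 members lower in every brain tumor, and 0 were higher. Over all 21037 genes 10.8% were lower and 8.08% higher without overlap. The median of the 18 members that passed the filter was -0.70, compared to 0.04 over all genes. Without mouse 5 of the retro-orbital tumors the median turned to 0.89 over 16 members, compared to 0.07 over all genes. Then 3 members were higher in every brain tumor (Hoxa3, Hoxb5 and Hoxc10, beside 11.2% of all genes) and the same 2 lower (beside 12.8%). Hoxc4 was at 0.0759, 0.0814 and 0.0776 CPM in the brain tumors, with the lowest retro-orbital tumor at 0.105 CPM.

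**Figure D3:**
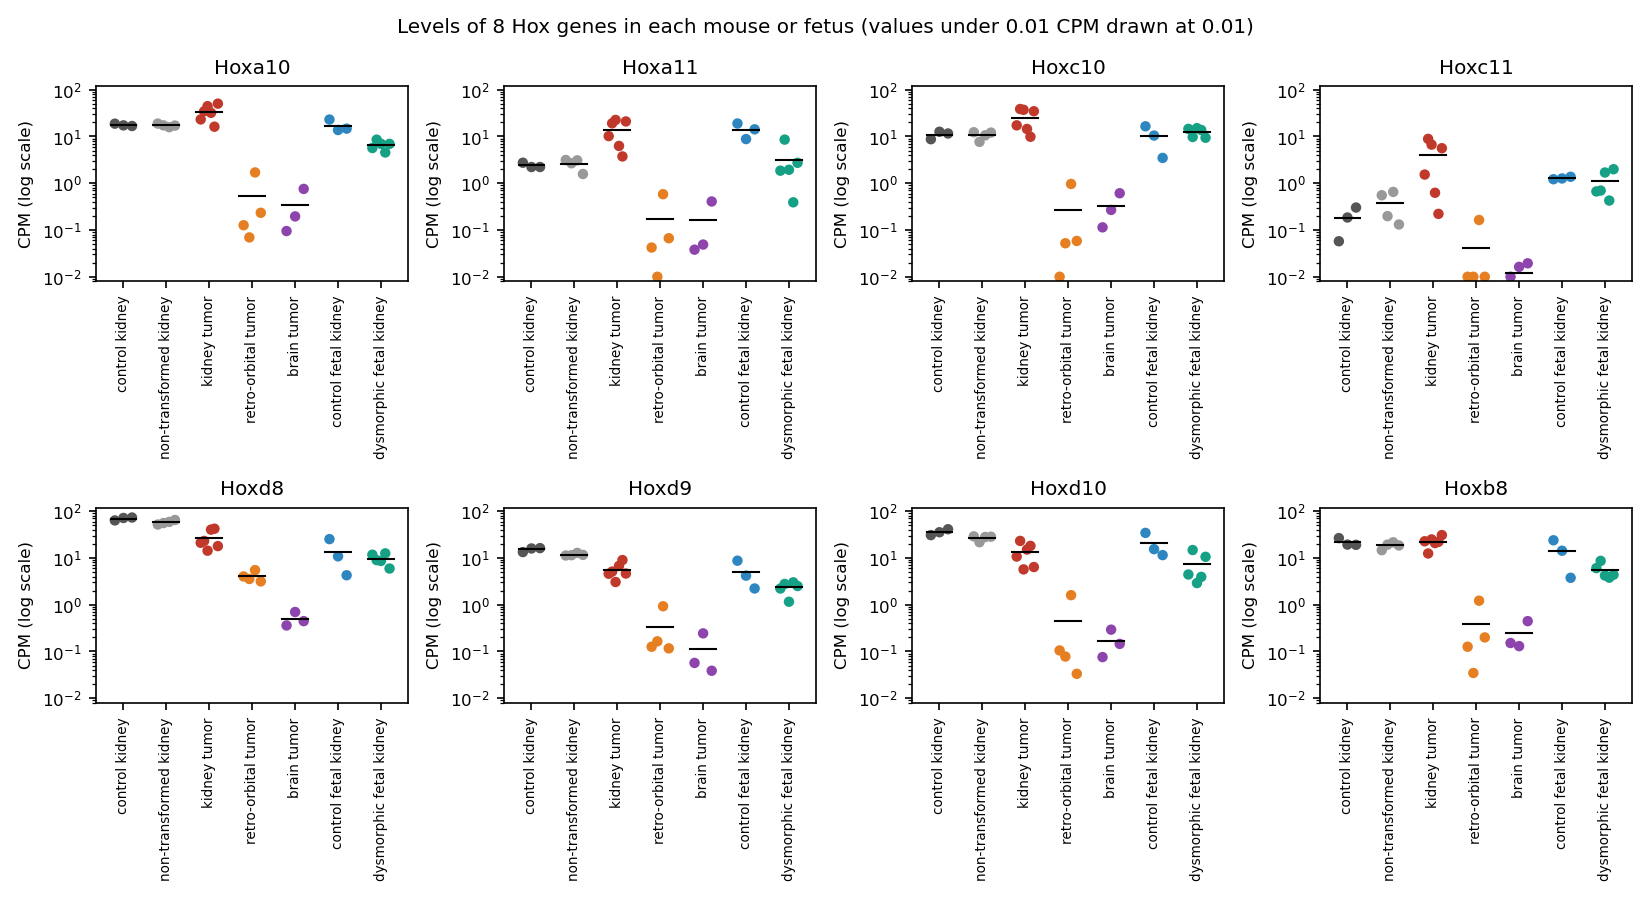
Level in CPM (log10 axis, values under 0.01 CPM drawn at 0.01) of Hoxa10, Hoxa11, Hoxc10, Hoxc11, Hoxd8, Hoxd9, Hoxd10 and Hoxb8 in each mouse or fetus of the 7 groups, with a line at the mean of each group. Hoxa11 sits above the control kidneys in every kidney tumor and Hoxc11 in 5 of 6, Hoxd8 and Hoxd9 sit below them, and all 8 genes are lower in each retro-orbital and brain tumor than in any kidney tumor.

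Per kilobase of exon, which allows genes to be compared, the order of the levels changed between groups. In control kidneys Hoxd8 led with 25.3 ± 1.91 CPM per kb, followed by Hoxd10 with 19.7 ± 2.85 and Hoxb8 with 8.23 ± 1.62 CPM per kb. Kidney tumors were led by Hoxc10 with 13.3 ± 6.73 CPM per kb, Hoxa10 with 10.2 ± 3.90 and Hoxd8 with 9.67 ± 4.32 CPM per kb. The spread over tumor-bearing mice was wider than the steps between these 3 genes, so their order is not settled, whereas the step from Hoxd10 to Hoxb8 in control kidneys exceeded the spread. Retro-orbital tumors were led by Hoxd8 with 1.48 ± 0.372 CPM per kb. Hoxc6 with 0.251 ± 0.185 and Hoxd10 with 0.25 ± 0.421 CPM per kb followed and did not differ beyond their spread. The place of Hoxd10 rests on mouse 5, without which its mean was 0.0723 CPM, compared to 0.591 CPM for Hoxc6. In brain tumors the leading genes Hoxd8 (0.183 ± 0.0643 CPM per kb), Hoxc10 (0.173 ± 0.133) and Hoxb7 (0.159) were level within their spread.

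Kidney tumors were then compared to control kidneys, to ask how the fusion-driven tumor differs from the normal organ. Of 39 members, 32 passed the filter, and Hoxa13, Hoxb1, Hoxb13, Hoxc12, Hoxc13, Hoxd12 and Hoxd13 did not. Hoxc11, Hoxa11 and Hoxa3 rose: Hoxc11 by 4.46 ± 1.30 on the log2 scale (SE, adjusted p = 0.0416, edgeR's quasi-likelihood test with Benjamini-Hochberg adjustment over all genes), Hoxa11 by 2.55 ± 0.61 (adjusted p = 0.0216) and Hoxa3 by 0.70 ± 0.19 (adjusted p = 0.0355). Members of Hoxd fell: Hoxd8 by -1.38 ± 0.32 (adjusted p = 0.0198), Hoxd9 by -1.44 ± 0.29 (0.0111), Hoxd10 by -1.43 ± 0.41 (0.0383) and Hoxd4, at low level, by -1.37 ± 0.42 (0.0483). These were 3 members higher and 4 lower of the 32 tested, while over all 23578 genes 12.5% were called higher and 6.51% lower, so the count called higher was near the background. The median log2 fold change of the 32 members was 0.03, compared to 0.05 over all genes.

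The clusters moved apart although the sum over the family was similar. The Hoxd sum was 121.2 ± 11.9 CPM in control kidneys, 96.9 CPM in non-transformed kidneys and 45.6 ± 18.7 CPM in kidney tumors, and it made up 35.6, 32.4 and 14.2% of all Hox CPM. Hoxa made up 26.6% in control kidneys and 41.6% in kidney tumors, with sums of 90.6 ± 8.22 and 134 ± 30.9 CPM. Hoxb was level at 87.2 and 88.5 CPM, and Hoxc was at 41.0 and 53.5 CPM. All 7 Hoxd members that passed the filter had a negative log2 fold change (median -1.38), compared to 1 of 10 in Hoxa (median 0.18). The medians of Hoxb and Hoxc were 0.08 and 0.01.

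Hoxd8 was at 63.5, 71.7 and 73.3 CPM in the control kidneys, and kidney tumors reached 42.2 CPM at the highest. Hoxd9, the neighbor of Hoxd8 in the cluster, was at 13.4, 16 and 16.2 CPM in control kidneys and 3.06 (lowest), 4.88 (median) and 9.02 CPM (highest) in kidney tumors. Hoxd10 was at 30.8, 35.5 and 41.1 CPM in control kidneys and 5.70, 12.9 and 23.2 CPM in kidney tumors. None of the 3 genes overlapped between the groups, and the highest tumors for Hoxd8 and Hoxd9 were those of mice 5 and 4.

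Hoxa11 was at 2.75, 2.22 and 2.22 CPM in control kidneys and 3.74, 14.7 and 22.6 CPM (lowest, median and highest) in kidney tumors. Hoxc11 was at 0.0574, 0.185 and 0.302 CPM in control kidneys and 0.221, 3.57 and 8.88 CPM in kidney tumors. For Hoxa11 the groups did not overlap, whereas for Hoxc11 the tumor of mouse 5 lay within the control range. Hoxd11, the remaining member of the group, was at 0.106 to 0.311 CPM in control kidneys and 0.0397 to 0.231 CPM in kidney tumors (log2 fold change -0.83 ± 0.54, adjusted p = 0.292), so 1 of the 3 group 11 paralogs did not move with the others. The sum of group 11 was 2.77 ± 0.235 CPM in control kidneys and 17.8 ± 11.5 CPM in kidney tumors.

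The group 10 paralogs moved apart as well. Hoxa10 was at 16.7 to 18.8 CPM in control kidneys and 16.2 to 50.3 CPM in kidney tumors (log2 fold change 0.95 ± 0.34, adjusted p = 0.0782), and Hoxc10 at 8.74 to 12.6 CPM and 9.86 to 38.6 CPM (1.23 ± 0.47, adjusted p = 0.0917). Neither passed the threshold, whereas Hoxd10 fell. Hoxc6 was at 13.1, 16.9 and 17.0 CPM in control kidneys and 6.21 to 13.8 CPM in kidney tumors (-0.78 ± 0.28, adjusted p = 0.0763). Hoxa3, an anterior gene of the pharyngeal region, was at 20.9 to 28.6 CPM in control kidneys and 30.0 to 47.0 CPM in kidney tumors, without overlap.

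Levels of Hoxd8, Hoxa11 and Hoxc11 differed among the kidney tumors of different mice along with the kidney markers. The tumors of mice 4 and 5, with 7718 and 7344 CPM of proximal tubule markers, had the highest Hoxd8 (40.4 and 42.2 CPM) and the lowest Hoxa11 (6.27 and 3.74 CPM) and Hoxc11 (0.625 and 0.221 CPM). The tumors of mice 2, 3 and 6, with 627 to 639 CPM of these markers, had the highest Hoxa11 (19.1, 22.6 and 21.0 CPM) and Hoxc11 (8.88, 6.69 and 5.61 CPM). Within every mouse with 2 kidney tumor libraries, the one with more markers had more Hoxd8. These libraries had 25.1 compared to 17.2 CPM in mouse 1, 16.7 compared to 11.6 CPM in mouse 3 and 18.5 compared to 16.2 CPM in mouse 6. For Hoxa11 and Hoxc11 the 2 libraries of a mouse did not all differ as the mice did. In mouse 4 the library with more markers (9586 compared to 5748 CPM) had less Hoxa11 (2.78 and 9.75 CPM) and Hoxa10 (12.3 and 51.6 CPM) and more Hoxd8 (48 and 32.2 CPM). In mouse 2 the library with more markers (1066 compared to 241 CPM) had more Hoxa11 (22.3 and 16.3 CPM), more Hoxc11 (16.7 and 2.03 CPM) and more Hoxd8 (31.0 and 16.2 CPM). Hoxa11 was nearly level in mouse 1 (9.90 and 10.3 CPM) between libraries with 3890 and 1025 CPM of markers. How far the amount of tubule in a sample sets these levels was not tested.

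The calls against control kidneys rest on few mice. With control mouse 2 or 3 left out, 0 of the 7 calls passed the threshold, and without control mouse 1 only Hoxa3 and Hoxd9 did. Without kidney tumor mouse 2, 3 or 6, 4 members passed. Over all genes the calls went from 4474 to 2084, 1163 and 1207 without control mouse 1, 2 and 3, and to 3355, 3104 and 3469 without kidney tumor mouse 2, 3 and 6. With every library kept and the mouse as a random block in limma, 8 members passed, among them Hoxc6 and Hoxd3 but not Hoxc11.

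**Figure D4:**
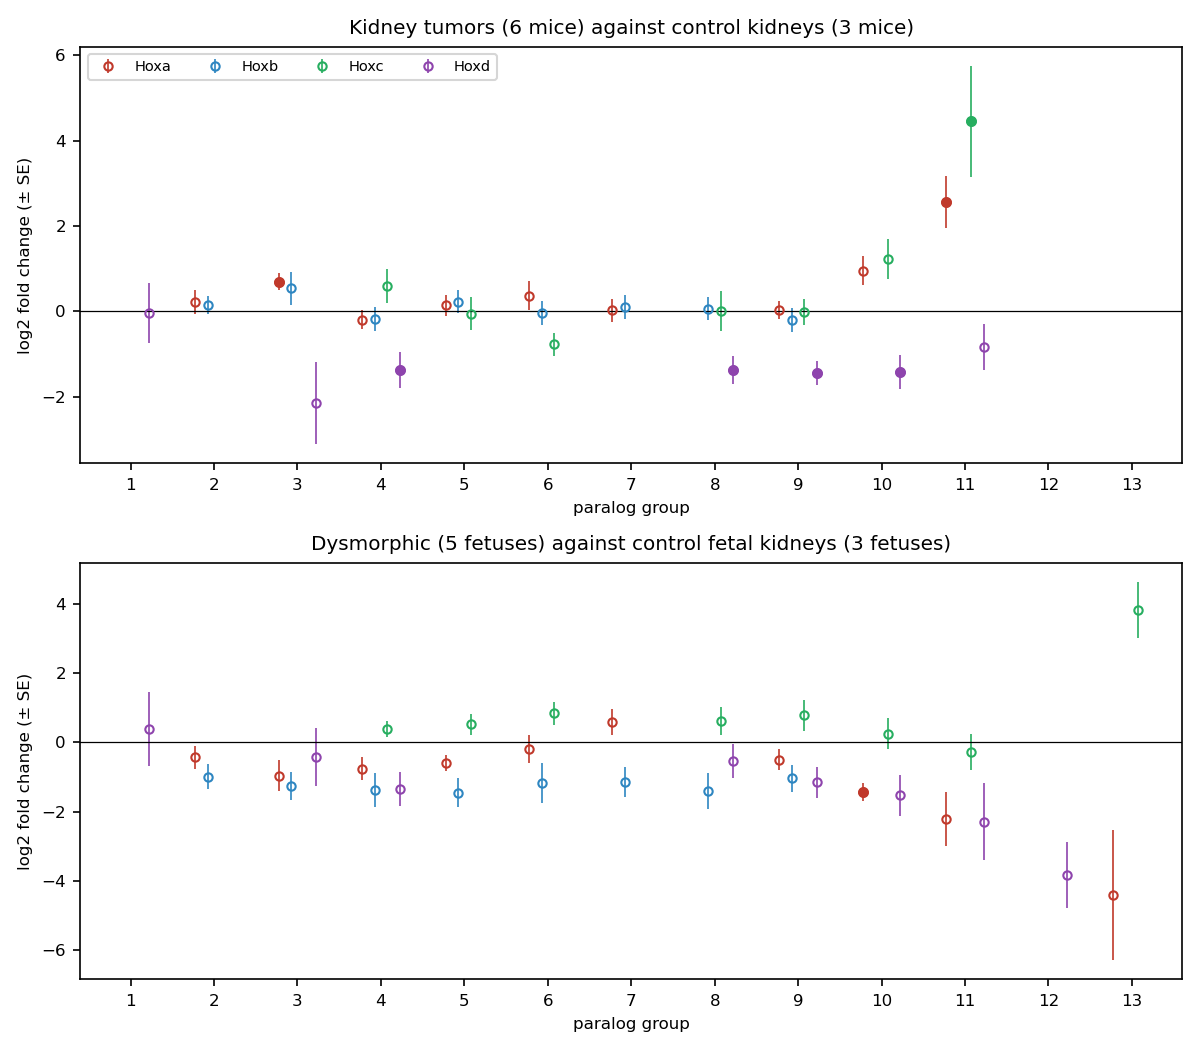
Log2 fold change of the Hox genes that passed the filter, with 1 not shown, by number in the cluster, for kidney tumors compared to control kidneys and for dysmorphic compared to control fetal kidneys, with SE bars and filled points where the adjusted p was under 0.05. In kidney tumors Hoxa11 and Hoxc11 are at the top and the Hoxd genes below 0, and in fetal kidneys most genes lie below 0 except those of Hoxc.

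Compared to non-transformed kidneys of the same model, kidney tumors had higher Hoxa11 (log2 fold change 2.36 ± 0.53, adjusted p = 0.0151) and lower Hoxd8 (-1.16 ± 0.30, adjusted p = 0.0256) and Hoxd9 (-1.13 ± 0.27, adjusted p = 0.0185). These 3 calls, 1 higher and 2 lower of 30 members tested, stand beside 12.1% of 21930 genes called higher and 5.02% lower. The median of the members was 0.23, compared to -0.02 over all genes. Hoxa11 was at 3.13, 2.67, 3.09 and 1.57 CPM in the non-transformed kidneys of mice 1, 3, 4 and 5, and Hoxd8 at 51.9, 55.8, 59.1 and 64.9 CPM, in both cases outside the range of the kidney tumors. Hoxa10 (0.92 ± 0.28, adjusted p = 0.0506), Hoxc11 (3.31 ± 1.05, adjusted p = 0.0540), Hoxc10 (1.21 ± 0.40, adjusted p = 0.0627) and Hoxd10 (-1.05 ± 0.37, adjusted p = 0.0780) did not pass the threshold.

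These groups share mice, and with the mouse as a block 0 members passed: Hoxa11 was at 1.71 ± 0.42 (adjusted p = 0.0938), Hoxd8 at -1.14 ± 0.27 (0.0855), Hoxd9 at -1.16 ± 0.29 (0.0990) and Hoxd10 at -1.26 ± 0.25 (0.0566). Without mouse 4 or mouse 5 of the non-transformed kidneys 1 call was left (Hoxa11 and Hoxd9, respectively), while without kidney tumor mouse 4 or 5 there were 5 and 7.

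In non-transformed compared to control kidneys 0 of 31 members passed the threshold in edgeR (0 in DESeq2 and 0 in limma as well), beside 0.00952% of 21019 genes called higher and 0.0% lower. At an unadjusted p under 0.05, 5 members were lower (Hoxc6, Hoxd3, Hoxd4, Hoxd9 and Hoxd10) and 0 higher, 16.1% of those tested compared to 6.31% lower over all genes. Hoxd9 was at 11.3, 11.5, 12.8 and 11.6 CPM in non-transformed kidneys and Hoxd10 at 29.0, 21.7, 28.1 and 28.5 CPM, each below the lowest control kidney (13.4 and 30.8 CPM). The log2 fold changes of -0.33 for Hoxd9 and -0.38 for Hoxd10 did not pass the threshold. The median of the members was -0.17, compared to 0.03 over all genes.

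The fetal samples differ from one another more than the adult kidneys. Control fetus 3 had 1.72 CPM of Pax2, the master gene of the nephric lineage, compared to 70.9 and 31.4 CPM in fetuses 1 and 2. Distal nephron markers were at 8.62 CPM in control fetus 3, compared to 864 and 314 CPM. By contrast, its proximal tubule markers were at 1305 CPM, between those of fetuses 1 and 2 (1336 and 1110 CPM). Podocyte markers were at 186 CPM in control fetus 3, compared to 254 and 201 CPM in fetuses 1 and 2. Skeletal muscle markers were at 1078 to 1285 CPM in control fetal and 2536 to 5825 CPM in dysmorphic fetal kidneys, and fibroblast markers at 4071 to 5496 and 7813 to 17302 CPM. Cartilage markers were at 6.42 to 16.5 and 6.21 to 2364 CPM in these groups. Proximal tubule markers were at 1110 to 1336 and 22.3 to 816 CPM, and podocyte markers at 186 to 254 and 66.7 to 142 CPM. The part of these tissues in the Hox levels below was not tested. The fetuses' titles carry 2 prefixes, one shared by dysmorphic fetuses 1 to 3 and control fetuses 1 and 2, the other by dysmorphic fetuses 4 and 5 and control fetus 3, and the labels do not say what a prefix stands for.

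The sum over the 39 members was 387, 253 and 178 CPM in control fetal kidneys and 153 to 225 CPM in dysmorphic fetal kidneys. Hoxa10 fell by 1.44 ± 0.25 on the log2 scale (adjusted p = 0.0366) and was the only one of 35 members to pass, with 23.0, 13.7 and 14.7 CPM in control fetal and 5.66, 8.55, 6.97, 4.55 and 6.95 CPM in dysmorphic fetal kidneys. The groups did not overlap in Hoxa10. With the title prefix as a term, a fit chosen after seeing the data, it was at -1.42 ± 0.24 (adjusted p = 0.0487) and again the only call, and among the 5 fetuses of the larger prefix it was at -1.42 ± 0.30 (adjusted p = 0.172), where 0 genes passed in all. Over all 22690 genes, 2.4% were called higher and 0.269% lower. Without control fetus 3 Hoxa10 was at -1.54 ± 0.29 (adjusted p = 0.0995), and 0 members passed without any single control fetus or without dysmorphic fetus 1, 3 or 4, compared to 6 without dysmorphic fetus 2 and 3 without dysmorphic fetus 5. Calls over all genes moved likewise, from 605 to 0 in the former settings and to 1247 and 1141 in the latter.

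The clusters differed in direction between the fetal groups. Hoxb had 0 of 8 members above 0 (median log2 fold change -1.22), Hoxd 1 of 8 (-1.25) and Hoxa 2 of 11 (-0.60), whereas Hoxc had 7 of 8 members above 0 (median 0.57). The median of the 35 members was -0.76, compared to -0.04 over all genes. Hoxc was at 34.9 CPM in control fetal kidneys and 54.0 CPM in dysmorphic fetal kidneys, 12.8 and 31.4% of all Hox CPM. At an unadjusted p under 0.05, 16 members were lower (45.7%, compared to 7.74% of all genes) and 3 higher (8.57%, compared to 12.6% of all genes).

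Hoxa11 was at 18.9, 8.80 and 14.2 CPM in control fetal kidneys and 1.86, 8.57, 1.94, 0.391 and 2.74 CPM in dysmorphic fetal kidneys (log2 fold change -2.21 ± 0.78, adjusted p = 0.168). Every dysmorphic kidney was below every control, although fetus 2 came close. Hoxd10 was at 34.4, 15.4 and 11.5 CPM in control fetal and 4.43, 14.8, 2.91, 3.94 and 10.6 CPM in dysmorphic fetal kidneys (-1.52 ± 0.59, adjusted p = 0.203), with fetus 2 inside the control range. Hoxc6 went the other way, from 13.9, 7.90 and 6.30 CPM to 19.1, 11.7, 15.9, 25.6 and 14.9 CPM (0.85 ± 0.33, adjusted p = 0.204), with overlap. Hoxc13, a gene of hair and nail, was at 0.0149 to 0.0791 CPM in control fetal and 0.232 to 1.22 CPM in dysmorphic fetal kidneys, without overlap (3.83 ± 0.81, adjusted p = 0.05).

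Hoxa13, Hoxb13 and Hoxd13, genes of the 5′ end that mark the tail, hindgut and genital region, were high in a single control fetus. In control fetus 3, Hoxa13 was at 6.34 CPM, Hoxb13 at 4.62 CPM and Hoxd13 at 5.36 CPM, compared to 0.158 and 0 CPM, 0 and 0 CPM, and 0.0158 and 0 CPM in fetuses 1 and 2. The intestinal genes Cdx1 and Cdx2 were at 7.45 and 12.4 CPM in control fetus 3, 3.01 and 6.18 CPM in fetus 2 and 0 CPM in fetus 1. Cdx2 was at 6.72 CPM in dysmorphic fetus 5, which also had the one clear Hoxc12 value (1.76 CPM, compared to 0 to 0.0209 CPM in the other 4). In every adult kidney and kidney tumor the group 13 genes summed to at most 0.525 CPM, and in retro-orbital and brain tumors they had 0 counts.

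**Figure D5:**
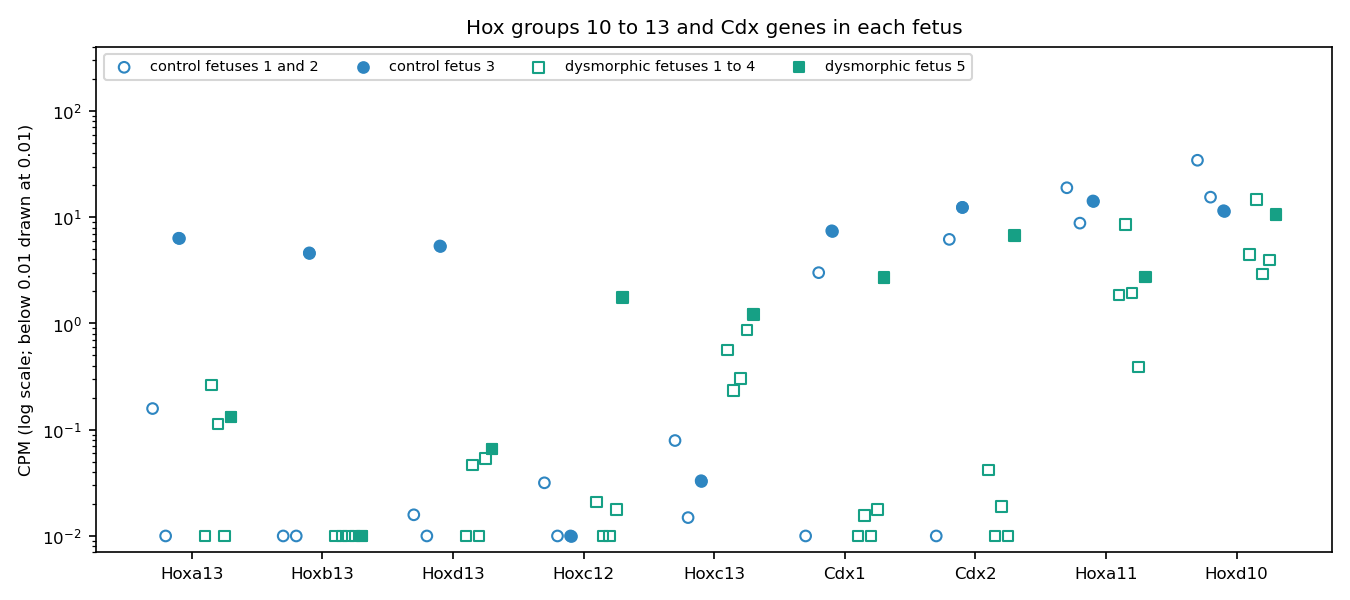
Level in CPM (log10 axis, values under 0.01 CPM drawn at 0.01) of Hoxa13, Hoxb13, Hoxd13, Hoxc12, Hoxc13, Cdx1, Cdx2, Hoxa11 and Hoxd10 in each of the 3 control and 5 dysmorphic fetal kidneys. Control fetus 3 carries the Hoxa13, Hoxb13 and Hoxd13 signal, and dysmorphic fetus 5 carries Hoxc12. Cdx2 is present in dysmorphic fetus 5 and higher in control fetus 3.

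Fetal control kidneys were also set beside adult control kidneys, although age, Cre line and count table all differ between them and cannot be told apart. Of 33 members tested, 7 were higher in the fetus and 5 lower, beside 25.1% and 23.9% of 22859 genes. Higher were Hoxc11 (log2 fold change 2.91 ± 0.58, adjusted p = 0.007), Hoxd11 (2.78 ± 0.61, adjusted p = 0.00981), Hoxa11 (2.63 ± 0.32, adjusted p = 0.00101), Hoxa2 (2.11 ± 0.33, adjusted p = 0.00267), Hoxa3 (1.52 ± 0.38, adjusted p = 0.0159), Hoxc4 (0.88 ± 0.22, adjusted p = 0.0156) and Hoxd12, which had 0 counts in every adult kidney and 0.277, 0.208 and 0.530 CPM in the fetuses (adjusted p = 0.00229). All 3 members of group 11 were thus higher in the fetal kidney, whereas in kidney tumors Hoxd11 was not. Lower were Hoxd8 (-2.27 ± 0.60, adjusted p = 0.0205), Hoxa7 (-1.98 ± 0.42, adjusted p = 0.00921), Hoxd9 (-1.49 ± 0.48, adjusted p = 0.0411), Hoxb9 (-1.14 ± 0.39, adjusted p = 0.0461) and Hoxa9 (-1.12 ± 0.36, adjusted p = 0.0394), all of groups 7 to 9. Without control fetus 2, 7 members passed, and without adult control mouse 2 or 3, 6 passed (Hoxa2, Hoxa7, Hoxa11, Hoxc11, Hoxd11 and Hoxd12 in both cases). This comparison and that of kidney tumors share the adult control kidneys.

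The change from control to fusion-bearing kidney differed for several members between the adult and the fetal model. It was tested as an interaction, the log2 fold change of kidney tumors from control kidneys minus that of dysmorphic from control fetal kidneys. Of 35 members, 4 had a higher change in the adult model, namely Hoxa10 (difference 2.43 ± 0.46, adjusted p = 0.00444), Hoxa11 (4.82 ± 1.09, adjusted p = 0.0134), Hoxc11 (4.80 ± 1.36, adjusted p = 0.0399) and Hoxa3 (1.69 ± 0.51, adjusted p = 0.0498). Hoxc6 had a lower change (-1.59 ± 0.45, adjusted p = 0.0394). Over all 24444 genes 6.87% were called higher and 2.07% lower. The median difference of the members was 0.78, compared to 0.16 over all genes, and all 8 Hoxb members tested were above 0 (median 1.25). Site of Cre action, age and kind of lesion differ between the models and cannot be told apart. The fetal groups also differ in muscle and fibroblast markers, and the part of these tissues in the differences was not tested. Hoxa10 passed with any single animal left out, while with adult control mouse 2 or 3 left out it was the only one; 2 members passed without adult control mouse 1, control fetus 2 or dysmorphic fetus 1, 3 or 4, and 3 passed without control fetus 1 or kidney tumor mouse 2, 3 or 6.

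Other genes inside the 4 clusters were mostly lower at the other tumor sites as well. There were 46, of which 14 had no count in any library and 10 a mean of at least 0.5 CPM. Of the 12 that passed the filter, 11 were lower in every retro-orbital tumor than in every kidney tumor (all but Gm11539), and 12 of 14 were lower in every brain tumor (all but Gm11539 and Hotairm1), beside 8.48% and 8.45% of all genes. The most abundant were the row of the microRNA gene Mir196a-1 (chr11:96265164-96265265, plus strand), between Hoxb9 and Hoxb13, and the adjoining noncoding gene Gm53. Sequences of the 5p microRNAs of these clusters, from RefSeq, are given with the seed (bases 2 to 8) in capitals, since they fall into 2 families by seed.
mmu-miR-196a-5p: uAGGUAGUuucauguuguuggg
mmu-miR-196b-5p: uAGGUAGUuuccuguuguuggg
mmu-miR-10a-5p: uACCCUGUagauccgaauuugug
mmu-miR-10b-5p: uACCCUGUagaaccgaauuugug
The libraries measured total RNA, so these rows count reads over the hairpin and its host transcript and not mature microRNAs. Mir196a-1 was at 19.1 CPM in control kidneys, 11.2 CPM in non-transformed kidneys, 20.4 CPM in kidney tumors, 0.280 CPM in retro-orbital tumors and 0.116 CPM in brain tumors. Its log2 fold change from kidney tumors was -6.20 ± 0.81 in retro-orbital and -7.38 ± 0.58 in brain tumors, compared to -6.36 and -6.76 for Hoxb9 beside it. Without mouse 5 the retro-orbital mean was 0.103 CPM and the log2 fold change -7.62 ± 0.43, compared to -8.67 for Hoxb9. The pseudogene Gm11539, by contrast, overlapped across the sites with means of 1.04, 1.05 and 1.31 CPM in kidney, retro-orbital and brain tumors.

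Hoxa11os, the antisense gene of Hoxa11, rose with Hoxa11 in kidney tumors compared to control kidneys (1.87 ± 0.51, adjusted p = 0.0346; means 0.747 and 0.209 CPM) and to non-transformed kidneys (2.0, adjusted p = 0.0483). It also differed in the interaction (4.84 ± 0.92, adjusted p = 0.00432), with 1.19 CPM in control fetal and 0.158 CPM in dysmorphic fetal kidneys. Reads of the 2 genes cannot be told apart if strand was not used in counting. Gm11536, an antisense gene of the Hoxb cluster, fell in kidney tumors (-1.40 ± 0.28 from control kidneys, adjusted p = 0.0111).

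Hox cofactors and chromatin regulators had few members that were lower at the other sites. Of 9 Hox cofactors of the Pbx, Meis and Pknox families, 1 was lower in every retro-orbital tumor than in every kidney tumor (Pknox1, log2 fold change -0.73 ± 0.15), the same one in brain tumors (-0.47 ± 0.20), and 0 were higher, beside 8.48% and 8.45% of all genes lower at these sites. Meis3 was at 1.52 CPM in control kidneys, 8.31 CPM in kidney tumors, 7.21 CPM in retro-orbital and 11.2 CPM in brain tumors. In kidney tumors compared to control kidneys Meis3 (2.48 ± 0.46, adjusted p = 0.00859) and Pbx3 (1.01 ± 0.26, adjusted p = 0.0269) rose, 2 of 9 beside 12.5% of all genes, and the 9 cofactors had a median of -0.13 (0.05 over all genes). Between fetal groups 0 of the 9 passed, and 6 of 9 were higher in control fetal than in adult kidneys, beside 25.1% of all genes, led by Meis1 (2.51 ± 0.16, adjusted p = 8.93e-05).

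Of 21 Polycomb genes, which keep Hox genes silent, 2 lay above and 2 below the range of the kidney tumors in retro-orbital tumors. This was near the 7.82% higher and 8.48% lower of all genes. In brain tumors 3 were higher and 1 lower, beside 6.87% and 8.45% of all genes, and counts this small are read no further. Ezh2, the methyltransferase of the complex, was higher at both sites (0.52 and 0.89 on the log2 scale), and its paralog Ezh1 lower (-0.58 and -0.60). In kidney tumors compared to control kidneys Ezh2 (0.75 ± 0.16, adjusted p = 0.0126) and Phf19 (1.27 ± 0.34, adjusted p = 0.0327) rose, and 3 genes fell, among them Jarid2 (-1.16) and Phc3 (-0.45). Of 12 Trithorax and other activating chromatin genes, 1 rose in kidney tumors (Psip1, 0.87 ± 0.17, adjusted p = 0.00946) and 2 fell (Kmt2c, -0.49, and Wdr5, -0.50), 1 was higher in retro-orbital tumors (Psip1) and 2 in brain tumors (Ash2l and Dot1l). The counts in kidney tumors stand beside 12.5% of all genes called higher and 6.51% lower. Of 19 genes of the retinoic acid pathway, which turns on 3′ Hox genes in the embryo, 2 rose in kidney tumors, no larger a share than the 12.5% of all genes, among them the binding protein Crabp2 (7.75 ± 1.05, adjusted p = 0.00196).

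Genes that act with Hox in the metanephros were split. Pax2 was at 25.0 to 44.8 CPM in kidney tumors, 0.148 to 1.78 CPM in retro-orbital and 0.0949 to 0.543 CPM in brain tumors, and the highest retro-orbital tumor was again that of mouse 5. Its log2 fold change was -5.85 ± 0.80 and -6.74 ± 0.63, close in size to those of the Hox genes, and Sall1 had -5.65 ± 0.96 and -2.34 ± 0.53. In kidney tumors compared to control kidneys, 2 of the 7 genes of this list that passed the filter rose, beside 12.5% of all genes, among them Eya1 (6.08 ± 1.43). Of 26 homeobox genes of the head, 4 of the 13 that passed were higher in every retro-orbital tumor than in every kidney tumor, namely the craniofacial genes Alx1 (3.73), Alx4 (4.81), Msx1 (3.20) and Lhx6 (2.27), and Emx2, which is also a kidney gene, was lower (-5.74 ± 1.20), beside 7.82% of all genes higher and 8.48% lower. In brain tumors 2 of 17 were higher, among them Lhx2 (4.68), beside 6.87% of all genes, and Emx2 was again lower (-4.65 ± 0.44). What other tissue at each site adds to these levels was not tested.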

How the data were processed

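RNA was extracted at a sequencing center from formalin-fixed, paraffin-embedded tissue, and libraries were made with a stranded total RNA kit without ribosomal depletion. The authors deposited gene counts, raw and whole numbers, in 2 tables, one with the 28 libraries of the Sglt2-Cre model and one with the 8 of the Pax8-Cre model. Per the submitters' processing notes, STAR 2.5.2a, Bowtie2, FastQC and MultiQC were used with the GRCm38/mm10 build; the counter, its annotation and its strand setting are not given in the sources used here. Of counts between 1 and 20, 79.0 to 84.3% were even, so 1 fragment may have been counted as 2, and halved counts were run as an alternative. Ensembl IDs were matched to GENCODE M21 for 53274 of 53379 genes.

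Libraries were summed per mouse and group, since tumors of a mouse are not independent. In R 4.3.3, edgeR 4.0.16 (TMM factors, filterByExpr, quasi-likelihood test, Benjamini-Hochberg adjustment over all genes passing the filter, threshold 0.05) fitted only the groups compared; the interaction used the 4 groups it is made of. Standard errors were taken as the size of a log2 change over the root of its F statistic. The 3 comparisons between tumor sites have no test. Alternatives were RLE factors, no filter, DESeq2 1.42.0, limma 3.58.1 for some counts, the mouse as a block, leaving out each animal and, chosen after seeing the data, the fetuses' title prefix as a term. Mice were read from the titles. Over 16173 genes, deviations of samples of a mouse from their group means correlated at -0.0472 to 0.162 for non-transformed kidneys with kidney tumors, 0.253 to 0.323 for retro-orbital and -0.0774 to -0.0585 for brain tumors. The scripts were tested on simulated data.

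The members and all lists were chosen with earlier results of these data known. Any member could be named: in depth those leading a cluster in a group, paralog groups 10 and 11, members that passed a test and up to 10 with the largest change between sites. Depth sets the precision, and intervals and the floor of 3 counts cover counting error only. A few genes, 1 of the members among them, are not reported by name here; they remain in the counts, sums and medians.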

Additional observations from a re-analysis of the deposited data

Results flagged for a closer look

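In groups of 4 to 10 animals, 82 sets of values of a Hox gene were examined for a single animal far from the others by Dixon's 95% criterion, and 6 were found, where chance gives about 4.1. Dysmorphic fetus 2 was the highest of its group for 5 of them, with 8.33 CPM of Hoxa2, 11.8 CPM of Hoxa5, 8.57 CPM of Hoxa11, 6.73 CPM of Hoxb4 and 4.32 CPM of Hoxb7. Hoxd10 in the non-transformed kidney of mouse 3 was at 21.7 CPM, the lowest of its group.

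The change from control to fusion-bearing kidney differed between the adult and the fetal model, by the interaction test, for Hoxa11 (difference in log2 fold change 4.82), Hoxc11 (4.80), Hoxa10 (2.43), Hoxa3 (1.69) and Hoxc6 (-1.59).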

How the results depend on the processing

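No member changed the sign of a called value under any alternative run. Of the values of single members under the alternatives, 999 kept their side of the threshold or moved less than the spread, 112 were no longer past it and 42 moved by more than the spread between replicates. Calls in kidney tumors compared to control kidneys numbered 7, with 10 in DESeq2, 5 without a filter (without Hoxa3 and Hoxd4), 8 in limma with the mouse as a random block (which lost Hoxc11) and 0 to 8 with 1 animal left out. Compared to non-transformed kidneys they numbered 3, with 7 in DESeq2, 0 with the mouse as a block and 1 to 7 with 1 animal left out; in all genes the block lowered the calls from 3755 to 847. In dysmorphic compared to control fetal kidneys there was 1 call, with 2 under RLE factors, 7 in DESeq2, 3 with halved counts and 0 to 6 with 1 fetus left out; with the title prefix of the fetuses, an alternative chosen after seeing the data, there was 1 with it as a term and 0 within the larger prefix. Control fetal compared to adult kidneys gave 12, and 6 to 15 with 1 animal left out. The interaction gave 5, with 3 without a filter, 8 in DESeq2, the same 5 members with the title prefix as a term and 1 to 7 with 1 animal left out. The members lower at the other sites without overlap stayed at 28 to 32 of 39 for retro-orbital tumors (28 with the mouse as a block) and 30 to 32 for brain tumors (30 with the block), and those between brain and retro-orbital tumors went from 2 to 5 with 1 tumor left out. Non-transformed compared to control kidneys gave 0 in all settings. Where a setting moved a count, the cause was not tested, other than that leaving out an animal leaves fewer samples.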
